A study of Mus musculus with 11 samples.

Results

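The 10 genes described here are the transcriptional regulators that set the fuel use and the mitochondrial content of the heart. They are the PGC-1 coactivators (Ppargc1a and Ppargc1b), the PPAR receptors (Ppara, Ppard and Pparg), the estrogen-related receptors (Esrra, Esrrb and Esrrg) and 2 regulators of mitochondrial genes, Nrf1 and Tfam. They were taken by symbol, and all 10 were matched among 25006 genes and passed the filter on low counts. RNA was sequenced from the left ventricle of 11 mice, 1 library per mouse. Naive control mice (n = 2) and control mice after myocardial infarction (MI, n = 3) were labelled Vegfc fl/fl. Naive mice (n = 3) and MI mice (n = 3) labelled Vegfc fl/fl with LysMCre are called LysMCre here, after the label. A lower level of Vegfc itself under that label was not detected in this bulk tissue. It was at 25.1 and 34.7 CPM in naive controls and at 27.5, 34.5 and 30.6 CPM in naive LysMCre M149, M150 and M34. Infarcted control hearts had 45.5, 21.9 and 25.8 CPM in M006, M38 and M40, and infarcted LysMCre hearts had 29.4, 25.3 and 22.4 CPM in M35, M900 and M913. The groups overlapped in both comparisons of genotypes (Vegfc log2 difference 0.045, adjusted p = 1, in naive and -0.27, adjusted p = 0.824, in MI hearts), so the label was not checked by its target. MI was made by permanent ligation of a coronary artery, and infarcted tissue was taken 9 days later. Naive hearts had no ligation, and a matching piece of ventricle was taken. LysMCre drives recombination from the Lyz2 gene in myeloid cells, so the floxed Vegfc of cardiomyocytes is not its target. The genotype labels give the controls without Cre, whereas the protocol text names LysMCre mice, and ages are not given in the sources used here.

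PGC-1 coactivators do not bind DNA themselves. They dock on nuclear receptors and on Nrf1 and raise the transcription of genes for fatty acid oxidation, the citric acid cycle and the respiratory chain. PPARs bind DNA as pairs with RXR receptors and are switched on by fatty acids, whereas ERRs act without a known natural ligand. In the adult heart, which burns mostly fat, Ppara, Esrra, Esrrg and Ppargc1a are the known drivers of this program.

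Total counts ran from 10824989 to 26782728 per library. Values are CPM, counts scaled to a common library size with TMM, edgeR's factor for library composition, and a floor of 3 counts was 0.101 to 0.363 CPM (counting error only). The 11 cardiomyocyte markers summed to 76989 to 107985 CPM in naive libraries, so the labelled tissue was borne out. They summed to 2844 to 15503 CPM in MI control and 6319 to 28500 CPM in MI LysMCre libraries. All 11 of these markers fell in control mice and 10 of 11 in LysMCre mice, with log2 fold changes of -3.03 for Tnnt2, -3.02 for Ryr2 and -3.54 for Tnni3 in controls. In the same control comparison 5 of 7 fibroblast markers rose (Postn by 5.68, Col1a2 by 4.10 and Col1a1 by 4.93 on the log2 scale), as did 5 of 8 macrophage markers (Fcgr1 by 2.60, Adgre1 by 1.79 and C1qb by 1.70). Of 6 endothelial markers 2 fell (Kdr by 1.67 and Emcn by 0.87 on the log2 scale), and Tie1 was at -0.69 and not called. Adipocyte markers summed to 0.726 to 33.6 CPM, and 1 of 4 tested rose (Cfd, from at most 0.272 CPM to 1.01 to 10.5 CPM, with Car3 and Cidec not called). Skeletal muscle markers summed to 4.43 to 9.68 CPM, with Mylpf lower, Tnnt3 higher and Actn3 not called. Beside these marker counts, 26.3% of all genes tested rose and 24.1% fell in control mice. In LysMCre mice 30.0% rose and 27.7% fell. The endothelial, adipocyte and skeletal muscle counts in control mice are not far from these shares. Xist was at 0.624 to 11.8 CPM in naive and 188 to 403 CPM in MI libraries, so sex and MI cannot be told apart in any value below. Lyz2, the gene that carries Cre, had 72.5 and 245 CPM in naive LysMCre M150 and M34 and 2121 and 2282 CPM in naive controls. The library labelled M149, of the naive LysMCre group, went against this with 4565 CPM. In MI hearts Lyz2 was at 5380, 4573 and 4538 CPM in controls and at 1392, 203 and 12.4 CPM in LysMCre M35, M900 and M913, with M35 nearest to the controls.

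After MI most of these regulators were lower in both genotypes. In control mice 8 of 10 had an adjusted p under 0.05, all 8 of them lower, and 50.4% of the 14779 genes tested passed in either direction (24.1% lower). Those 8 also made up the genes with an unadjusted p under 0.05 (57.3% of all genes) and those with no overlap between groups (72.1% of all genes, 39.1% higher and 33.0% lower). The median log2 fold change over the 10 genes was -1.87, and over all genes tested it was 0.13. In LysMCre mice 9 of 10 were called, 8 lower and 1 (Ppard) higher, where 57.6% of all genes were called, 27.7% lower and 30.0% higher. The same 9 had an unadjusted p under 0.05 (62.8% of all genes) and no overlap (64.3% of all genes, 33.6% higher and 30.7% lower). The median over the 10 genes was -1.79 and over all genes 0.10. Ppargc1a, Ppargc1b, Pparg, Esrra, Esrrg and Tfam were called in both genotypes in each of 11 fits that left out 1 library. Without M149 the count in LysMCre mice was 8, with Esrrb no longer called. In bulk tissue, fewer cells of a type and less RNA per cell cannot be told apart.

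**Figure D1:**
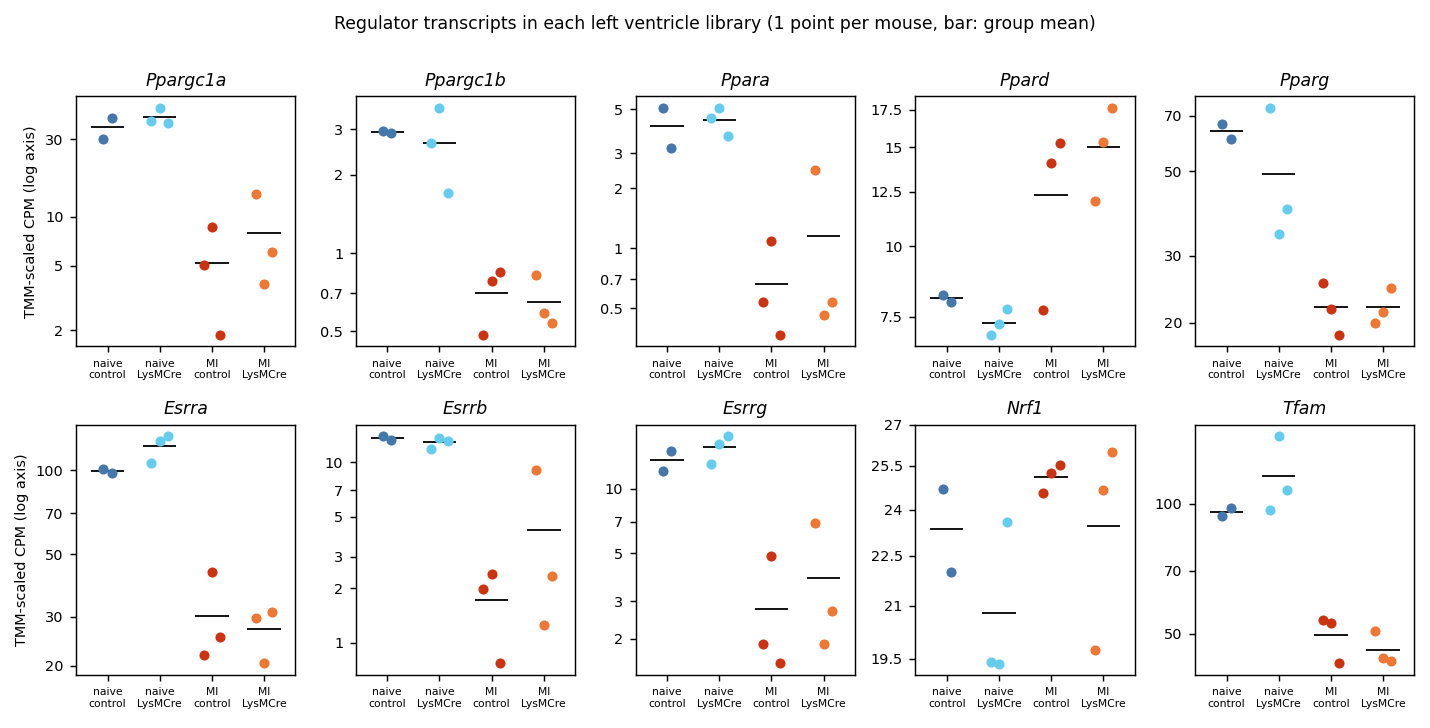
TMM-scaled CPM of the 10 regulators in each library, on a logarithmic axis with its own range in each panel, with 1 point per mouse and a bar at each group mean (naive control n = 2, other groups n = 3). In 8 panels all MI points lie below all naive points of the same genotype, and Ppard and Nrf1 do not show this.

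**Figure D2:**
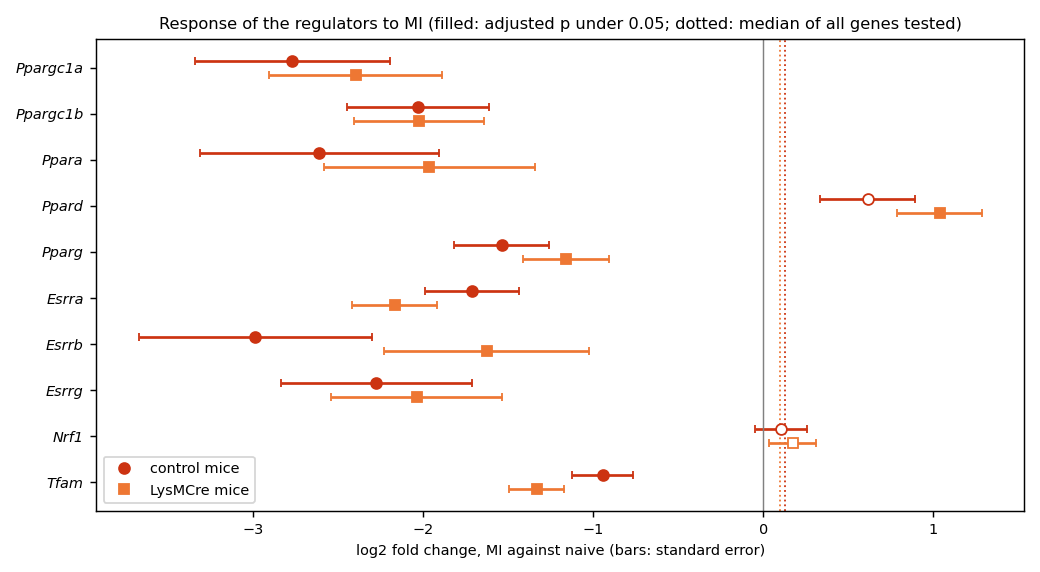
Log2 fold change of MI against naive for each regulator, with bars of 1 standard error, in control mice (circles) and LysMCre mice (squares). Filled symbols have an adjusted p under 0.05, and the dotted lines mark the medians of all genes tested (0.13 and 0.10).

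The stretches before the transcription start are shown for Ppargc1a, a coactivator, and Esrra, a receptor, which both fell after MI in both genotypes, as other members did. They come from RefSeq windows of build GRCm38.p6, read 5′ to 3′ on the gene's strand and cut where GENCODE M21 has an exon. Windows were matched for 9 of the 10 genes, 16 in all.
Ppargc1a, chr5:51567727-51567975, minus strand: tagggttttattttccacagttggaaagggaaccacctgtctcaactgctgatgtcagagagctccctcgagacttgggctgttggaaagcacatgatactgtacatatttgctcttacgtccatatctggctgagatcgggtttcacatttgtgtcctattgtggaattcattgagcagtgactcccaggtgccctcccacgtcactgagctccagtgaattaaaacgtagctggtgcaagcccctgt
Esrra, chr19:6921814-6922058, minus strand: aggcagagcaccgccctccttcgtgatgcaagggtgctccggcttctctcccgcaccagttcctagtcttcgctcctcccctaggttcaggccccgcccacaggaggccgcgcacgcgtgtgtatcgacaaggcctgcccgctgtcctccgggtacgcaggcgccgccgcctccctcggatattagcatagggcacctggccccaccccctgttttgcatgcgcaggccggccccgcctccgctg

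Each window of 250 bases before and 50 after a start was searched on both strands for the nuclear receptor half-site AGGTCA, the ERR element TNAAGGTCA, the PPAR element DR1 (a repeat of the half-site after 1 free base) and the Nrf1 motif, where N is any base. The longer ERR and PPAR elements contain the half-site. Of all 32851 RefSeq windows, 16.3% held the half-site, 1.28% the ERR element, 0.0396% the PPAR element and 4.60% the Nrf1 motif. Neither stretch above held any of these letters. Pparg held the half-site in 2 of its 3 windows and Ppara held the Nrf1 motif once, at bases -31 to -22 from the start. The 3 matches are shown with the motif in capitals.
Ppara, chr15:85735735-85735764, plus strand: gggctcggtgGCGCATGCGCgcggactagg
Pparg, first window, chr6:115361104-115361133, plus strand: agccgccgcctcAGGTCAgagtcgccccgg
Pparg, second window, chr6:115362319-115362348, plus strand: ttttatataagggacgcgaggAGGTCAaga

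A match describes letters only, and binding was not measured here. Both Pparg matches lie in annotated exons.

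Ppargc1a (ENSMUSG00000029167, chromosome 5, 51454250 to 51567726, minus strand) encodes PGC-1α, the best known driver of mitochondrial genesis in heart and muscle. It was at 30.2 and 40.8 CPM in naive controls M44 and M45 and at 38.9, 47.0 and 37.8 CPM in naive LysMCre M149, M150 and M34. Infarcted hearts had it at 5.06, 8.62 and 1.87 CPM in controls M006, M38 and M40 and at 13.8, 3.86 and 6.05 CPM in LysMCre M35, M900 and M913. Every MI library lay below every naive library, and the MI libraries spread over a wider ratio than the naive ones. The log2 fold change was -2.77 (standard error 0.57, adjusted p = 0.00307) in control mice, a 6.82-fold lower level. It was -2.40 (standard error 0.51, adjusted p = 0.00336) in LysMCre mice, a 5.27-fold lower level.

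Ppargc1b (ENSMUSG00000033871, chromosome 18, 61298136 to 61400431, minus strand) encodes the related PGC-1β and carries Mir378a inside it, with no shared exon bases. It was at 2.94 and 2.90 CPM in naive controls and at 2.65, 3.63 and 1.71 CPM in naive LysMCre M149, M150 and M34. After MI it fell to 0.484, 0.778 and 0.844 CPM in controls M006, M38 and M40 and to 0.823, 0.587 and 0.538 CPM in LysMCre M35, M900 and M913. The groups did not overlap. The log2 fold changes were close in value, -2.03 (standard error 0.42, adjusted p = 0.00269) in control and -2.02 (standard error 0.38, adjusted p = 0.00147) in LysMCre mice.

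Ppara (ENSMUSG00000022383, chromosome 15, 85734983 to 85802819, plus strand), the receptor for fatty acids that turns on their oxidation, was at 5.08 and 3.17 CPM in naive controls M44 and M45. In naive LysMCre M149, M150 and M34 it was at 4.51, 5.08 and 3.66 CPM. In infarcted hearts the level was at 0.538, 1.08 and 0.367 CPM in controls and at 2.47, 0.461 and 0.538 CPM in LysMCre M35, M900 and M913. M35 stood nearest to the naive range but stayed below it. On the log2 scale the difference was -2.61 (standard error 0.70, adjusted p = 0.0104) in control and -1.96 (standard error 0.62, adjusted p = 0.0220) in LysMCre mice. The call in control mice was lost without M44 (-2.23, adjusted p = 0.0732), and that in LysMCre mice without M150, M900 or M913 and when counts were scaled by library size alone (-1.46, adjusted p = 0.0591). Without M35 the latter value was -3.12.

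Ppard (ENSMUSG00000002250, chromosome 17, 28232700 to 28301474, plus strand), a PPAR found in most tissues, went against the rest of its family. It was at 8.21 and 7.97 CPM in naive controls and at 6.96, 7.26 and 7.73 CPM in naive LysMCre libraries. After MI it was at 7.70, 14.1 and 15.3 CPM in controls M006, M38 and M40 and at 12.0, 15.3 and 17.6 CPM in LysMCre mice. Control M006 lay below both naive controls, whereas all LysMCre MI libraries lay above their naive group. In LysMCre mice Ppard rose 2.05-fold (log2 fold change 1.04, standard error 0.25, adjusted p = 0.00552). In control mice the log2 fold change was 0.61 (standard error 0.28, adjusted p = 0.0942), and it was called without M006 (0.86, adjusted p = 0.00742) and with library size alone (1.05, adjusted p = 0.00985).

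Pparg (ENSMUSG00000000440, chromosome 6, 115360951 to 115490399, plus strand), the fat cell and macrophage PPAR, was at 66.8 and 60.7 CPM in naive controls M44 and M45. In naive LysMCre mice it was at 73.5 CPM in the library labelled M149 and at 34.3 and 39.8 CPM in M150 and M34. MI libraries were at 25.5, 21.8 and 18.6 CPM in controls and at 20.0, 21.4 and 24.8 CPM in LysMCre mice. All 6 MI libraries were within a narrow range, below the lowest naive library. The log2 fold change was -1.54 (standard error 0.28, adjusted p = 0.00155) in control and -1.16 (standard error 0.25, adjusted p = 0.00328) in LysMCre mice. In LysMCre mice it was -0.75 without M149 and still called, and it was -0.68 (adjusted p = 0.0520) with library size alone.

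The spread of Pparg among naive libraries went with some markers of alveolar macrophages, lung macrophages that depend on this receptor. A list of 12 genes, lung epithelium included, was carried almost wholly by Chil3 and Atp6v0d2 in naive libraries and summed to 801 and 816 CPM in M44 and M45 and to 2273 CPM in M149. It summed to 35.5 and 81.3 CPM in M150 and M34 and to 41.7 to 90.8 CPM in MI libraries. The 3 naive libraries with the high sums were the 3 with the high Pparg values and the high Lyz2 values. Chil3, a secreted protein of these macrophages, was at 580, 601 and 1679 CPM in M44, M45 and M149 and at 26.0 and 54.2 CPM in M150 and M34. Atp6v0d2 was at 213, 205 and 571 CPM and at 6.90 and 23.4 CPM in the same order. Siglecf, Marco and Scgb1a1 were also higher in M44, M45 and M149 than in M150 and M34, all under 15 CPM, whereas Ear2, Krt79 and Ager did not separate these libraries. The lung epithelium genes Sftpc, Sftpb, Sftpd and Sftpa1 were at 0 in all 5 naive libraries. Scgb1a1 and Ager, also of lung epithelium, were at 0 to 2.16 CPM and at 0.121 to 0.732 CPM in these libraries. Of 8 list genes tested in control mice 2 fell (Chil3 and Scgb1a1) and 2 rose after MI (Krt79 and Ager). These counts are near the shares of all genes tested, 24.1% lower and 26.3% higher. The part of such cells in the Pparg difference was not tested.

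**Figure D3:**
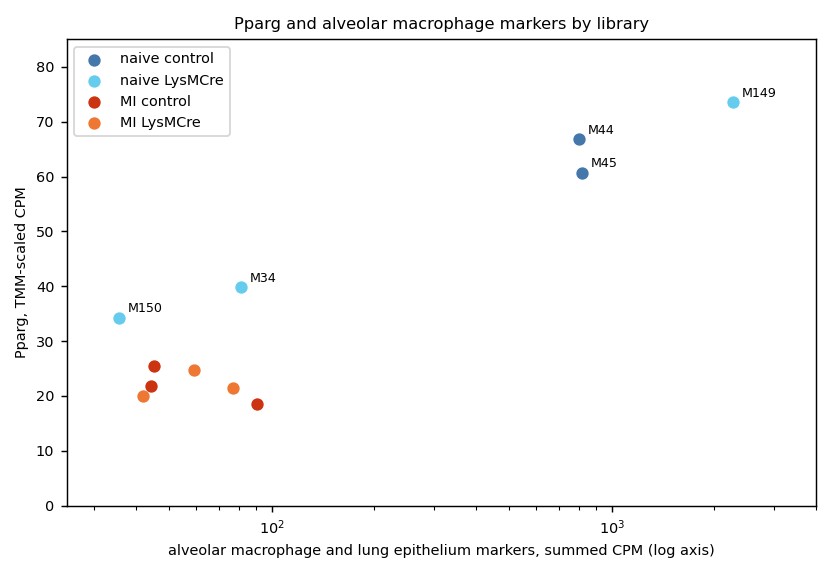
Pparg (CPM, linear axis) against the summed CPM of 12 alveolar macrophage and lung epithelium markers (logarithmic axis, sums carried in naive libraries by Chil3 and Atp6v0d2), 1 point per library, coloured by group. Naive M44, M45 and M149 lie at sums of 801 to 2273 CPM with Pparg at 60.7 to 73.5 CPM, and the other naive libraries lie at 35.5 and 81.3 CPM with Pparg at 34.3 and 39.8 CPM.

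Esrra (ENSMUSG00000024955, chromosome 19, 6910977 to 6921813, minus strand) encodes ERRα, a receptor that PGC-1α switches on at respiratory chain genes. It was at 101 and 97.5 CPM in naive controls and at 106, 127 and 132 CPM in naive LysMCre M149, M150 and M34. Infarcted hearts had it at 21.9, 43.4 and 25.3 CPM in controls M006, M38 and M40 and at 29.6, 20.5 and 31.2 CPM in LysMCre mice. All MI libraries lay below all naive ones. As a log2 fold change this was -1.71 (standard error 0.28, adjusted p = 0.000859) in control and -2.17 (standard error 0.25, adjusted p = 0.000111) in LysMCre mice. Esrra shares 73 exon bases with Trmt112 on the other strand, which had 184 counts over the 11 libraries, and the strand setting of the counting was not given in the sources used here.

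Esrrb (ENSMUSG00000021255, chromosome 12, 86361117 to 86521628, plus strand), an ERR also known from stem cells, was at 14.0 and 13.3 CPM in naive controls and at 11.9, 13.7 and 13.2 CPM in naive LysMCre mice. With MI the gene was at 1.99, 2.40 and 0.770 CPM in controls and at 9.11, 1.26 and 2.36 CPM in LysMCre M35, M900 and M913. M35 was far above the other MI libraries and below all naive libraries. The log2 fold change in control mice was -2.99 (standard error 0.69, adjusted p = 0.00526), a 7.93-fold lower level. In LysMCre mice it was -1.63 (standard error 0.60, adjusted p = 0.0429), and -2.83 without M35. That call was lost in 8 of 11 fits with 1 library left out, where the adjusted p reached 0.142, with library size alone (-1.12, adjusted p = 0.124) and in a fit of the compared groups alone (-1.57, adjusted p = 0.0772).

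Esrrg (ENSMUSG00000026610, chromosome 1, 187608791 to 188214885, plus strand), the ERR that is rich in heart and other oxidative tissue, was at 12.1 and 14.95 CPM in naive controls and at 13.0, 16.1 and 17.6 CPM in naive LysMCre mice. After MI it was at 1.88, 4.87 and 1.54 CPM in controls M006, M38 and M40 and at 6.93, 1.89 and 2.69 CPM in LysMCre M35, M900 and M913. Again M38 and M35 were the highest MI libraries of their genotypes, and none reached a naive value. The log2 fold change was -2.28 (standard error 0.56, adjusted p = 0.00709) in control and -2.04 (standard error 0.50, adjusted p = 0.00687) in LysMCre mice.

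Nrf1 (ENSMUSG00000058440, chromosome 6, 30047988 to 30153458, plus strand), nuclear respiratory factor 1, acts on promoters of respiratory chain genes and of Tfam. It was at 24.7 and 22.0 CPM in naive controls and at 19.4, 19.4 and 23.6 CPM in naive LysMCre mice. In MI hearts it was at 24.5, 25.3 and 25.5 CPM in controls and at 19.7, 24.7 and 26.0 CPM in LysMCre mice. The groups overlapped in both genotypes. In log2 terms the difference was 0.10 (standard error 0.15, adjusted p = 0.592) in control and 0.17 (standard error 0.14, adjusted p = 0.298) in LysMCre mice. With library size alone, which moved the median of all genes to 0.57 and 0.59, Nrf1 was called at 0.55 (adjusted p = 0.0189) and 0.67 (adjusted p = 0.00323), close to those medians.

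Tfam (ENSMUSG00000003923, chromosome 10, 71225464 to 71238280, minus strand) encodes the protein that packs mitochondrial DNA and helps to start its transcription. It was at 93.8 and 97.9 CPM in naive controls and at 96.9, 143 and 108 CPM in naive LysMCre M149, M150 and M34. Infarcted hearts had it at 53.8, 52.9 and 42.7 CPM in controls and at 50.8, 43.9 and 43.2 CPM in LysMCre mice. The groups were well apart, although the change was the smallest of the 8 that fell in control mice. Tfam was 1.92-fold lower in control (log2 fold change -0.94, standard error 0.18, adjusted p = 0.00185) and 2.52-fold lower in LysMCre mice (-1.33, standard error 0.16, adjusted p = 0.000124). The 13 genes of the mitochondrial genome listed in the files had 0 counts in every library, so the transcripts that Tfam drives were not measured.

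Per length of transcript (RPKM, CPM per kilobase of exon), Esrra was the most abundant of the 10 in naive control hearts at 22.6 ± 0.573 (SD, n = 2). Tfam at 21.6 ± 0.642 RPKM and Pparg at 21.6 ± 1.46 RPKM followed and overlapped each other. Ppargc1a stood 4th at 5.39 ± 1.13 RPKM, and Ppargc1b was last at 0.732 ± 0.00776 RPKM. In naive LysMCre hearts the first 4 kept this order, with Esrra at 27.8 ± 3.12, Tfam at 26.1 ± 5.50 and Pparg at 16.7 ± 7.20 RPKM (SD, n = 3), of which neighbours overlapped. After MI the order was another one. Tfam led at 11.2 ± 1.38 RPKM in control and 10.4 ± 0.952 RPKM in LysMCre hearts (SD, n = 3), above Pparg in both. Nrf1 and Ppard moved up to 4th and 5th place, with Nrf1 at 2.44 ± 0.0496 and 2.28 ± 0.321 RPKM and Ppard at 1.64 ± 0.541 and 2.00 ± 0.374 RPKM. Ppargc1a came 6th by its mean, at 0.786 ± 0.512 and 1.20 ± 0.788 RPKM, and its range overlapped those of Ppard above it and of its lower neighbour. Nrf1 lay above Ppard in control hearts and overlapped it in LysMCre hearts. Ppara and Ppargc1b closed the order at 0.173 ± 0.0973 and 0.176 ± 0.0479 RPKM in MI control hearts.

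The regulators were next set against cardiomyocyte transcripts in the same library, as log2 CPM of a gene minus the mean log2 CPM of the 11 cardiomyocyte markers. This is a description with no test, and the markers themselves fell after MI. Ppargc1a kept nearly the same distance to the markers in LysMCre mice, -6.87 ± 0.128 in naive and -6.87 ± 0.207 in MI hearts (SD, n = 3). In control mice its mean distance moved by 0.43, from -7.18 ± 0.222 (SD, n = 2) in naive to -6.75 ± 0.302 (SD, n = 3) in MI hearts. Naive and MI libraries overlapped in both genotypes for Ppargc1a and Ppara, whose mean distance moved by 0.88 in control and 0.38 in LysMCre mice. Esrrb overlapped in control mice (0.36) and Esrrg in LysMCre mice (0.37), while Esrrg in control mice (0.99) and Esrrb in LysMCre mice (0.52) lay above the naive range.

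Esrra, Ppargc1b and Pparg lay above the naive range in control mice, with mean shifts of 1.62, 1.48 and 1.86, and overlapped it in LysMCre mice, with shifts of 0.38, 0.74 and 1.48. Tfam, Nrf1 and Ppard lay above it in both genotypes, by 2.45 and 1.24 for Tfam, 3.51 and 2.73 for Nrf1 and 3.95 and 3.57 for Ppard. In MI controls M40, the library with the lowest marker sum (2844 CPM), had the highest value relative to the markers for all 10 genes. The marker mean subtracted was 7.43 in M40 against 9.41 in M006 and 9.90 in M38. A low mean raises this value for every gene alike, so the 10 are not separate observations. The MI libraries with the highest sums, M38 (15503 CPM) and M35 (28500 CPM), had the highest Ppargc1a, Ppara, Esrrb and Esrrg of their genotypes.

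**Figure D4:**
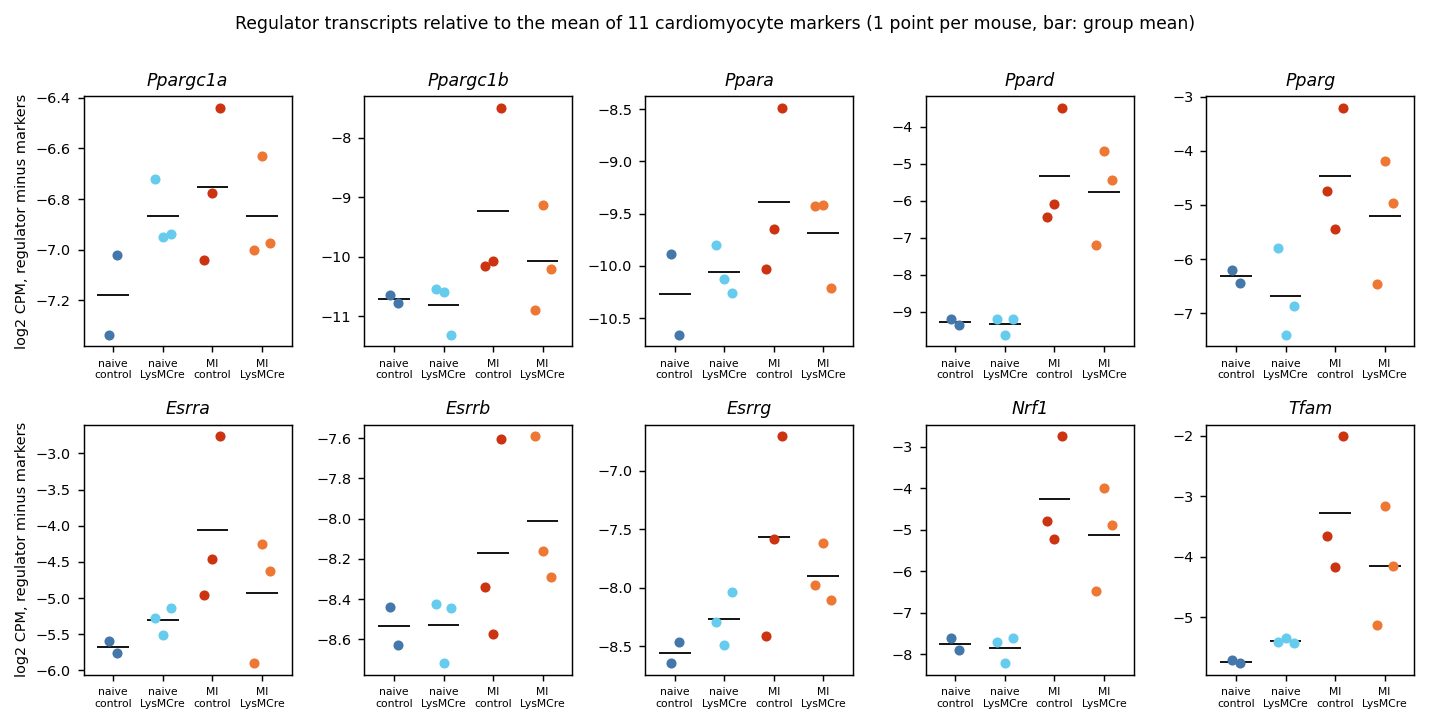
Log2 CPM of each regulator minus the mean log2 CPM of 11 cardiomyocyte markers in the same library, 1 point per mouse with a bar at the group mean, each panel with its own axis range. Ppargc1a and Ppara overlap between naive and MI libraries in both genotypes, and Tfam, Nrf1 and Ppard lie higher after MI in both.

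Genotype made no difference that passed the test. In MI hearts 0 of the 10 genes were called between LysMCre and control mice, where 0% of all genes were called by edgeR, 0 of the 10 had an unadjusted p under 0.05 against 7.94% of all genes, and DESeq2 called 0 of the 10 and 61 genes in all. All 10 groups overlapped, where 12.1% of all genes did not (5.99% higher and 6.12% lower). The difference furthest from 0 was that of Esrrb at 1.28 (log2, standard error 0.63, adjusted p = 0.657), and without M35 it was 0.076. Ppara was at 0.74 (standard error 0.65, adjusted p = 0.805) and Ppargc1a at 0.59 (standard error 0.52, adjusted p = 0.814), and without M35 these values were -0.42 and -0.070. The standard errors of Ppara, Esrrb, Ppargc1a and Esrrg were 0.51 to 0.65, so differences of this size could not be told from the spread. Those of Nrf1 (-0.097, standard error 0.14), Tfam (-0.12, standard error 0.16) and Pparg (0.0087, standard error 0.25) were tighter.

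In naive hearts 0 of the 10 genes were called between genotypes, against 0% of all genes, and 0 of the 10 had an unadjusted p under 0.05 against 3.38% of all genes (14 genes called by DESeq2, 0 of the 10). Esrra lay above the control range (log2 difference 0.30, standard error 0.28, adjusted p = 1) and Ppard below it (-0.14, standard error 0.29, adjusted p = 1), 2 of 10 genes without overlap where 22.4% of all genes had none (12.3% higher and 10.1% lower). Pparg was at -0.37 (standard error 0.28) with all libraries and at -0.78 (adjusted p = 0.219) without M149. The response to MI differed between genotypes for 0 of the 10 genes, against 0% of all genes (8.30% at an unadjusted p under 0.05, 0 of the 10, and 54 genes called by DESeq2, 0 of the 10). Its largest values were 1.36 for Esrrb (standard error 0.91, adjusted p = 0.675) and 0.65 for Ppara (standard error 0.93, adjusted p = 0.875). Ppard, called in LysMCre mice only, had a difference of 0.42 (standard error 0.38, adjusted p = 0.773).

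The partners and targets of these regulators were counted from lists chosen for their role, against 26.3% of all genes higher and 24.1% lower in control mice and 30.0% and 27.7% in LysMCre mice. Genes named below are those with the smallest p in control mice and need not have the largest changes. Of the RXR receptors, which pair with PPARs, Rxrg was the one that fell. It was at 101 to 140 CPM in naive and 2.31 to 24.1 CPM in MI libraries (log2 fold change -3.62, standard error 0.69, adjusted p = 0.00226, in control and -3.07, standard error 0.61, adjusted p = 0.00281, in LysMCre mice). Rxra rose in LysMCre mice (0.41, adjusted p = 0.0292) and was at 0.29 in control mice (adjusted p = 0.147). Rxrb was at -0.013 and -0.12 and was not called.

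Of 15 coregulators 2 rose and 4 fell in control mice, and 8 rose and 3 fell in LysMCre mice, so this list did not move one way. In control mice the share called lies below that of all genes (50.4%). In LysMCre mice the share called lies above that of all genes (57.6%), as does the share that rose (30.0%). The list was not tested as a set. Perm1, a muscle partner of PGC-1 and ERR, fell from 181 to 229 CPM in naive to 6.90 to 62.9 CPM in MI libraries (-3.19 in control and -2.55 in LysMCre mice). Lpin1, which amplifies PGC-1α and Ppara, fell too (-2.32 and -1.90). The list's split turned on scaling, and library size alone gave 10 higher and 2 lower in control mice. That scaling called 9009 of all 14779 genes tested in control mice, against 7450 in the main fit. It also moved the median of all genes up, as given for Nrf1. Of 7 subunits of AMPK, the energy sensor that acts on PGC-1α, 4 fell in both genotypes and 1 rose in LysMCre mice. The share called in either direction in control mice is near that of all genes (50.4%). The share that fell lies above that of all genes (24.1%), in a list of 7 not tested as a set. Those with the smallest p were Prkab1 (-0.93 and -0.73), Prkag1 (-1.10 and -1.17) and the catalytic subunit Prkaa2 (-2.44 and -1.66).

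PPARα target genes of fatty acid uptake and oxidation fell broadly. Of 26, 22 were lower and 1 higher in control mice (median -2.69, 24.1% of all genes lower), and 22 were lower and 2 higher in LysMCre mice (median -2.18, 27.7% of all genes lower). Mlycd, which lifts the malonyl-CoA brake on fat entry, fell by 2.20 and 2.19 on the log2 scale. Cpt2, which rebuilds acyl-CoA inside mitochondria, fell by 2.56 and 2.10, and Hadha, a subunit of the trifunctional β-oxidation enzyme, by 2.71 and 1.61. The next 2 genes were named after their values were seen. Cd36, a fatty acid transporter that also takes part in the uptake of dying cells, fell from 2488 to 2726 CPM in naive to 263 to 819 CPM in MI libraries (-2.46 and -2.23). Angptl4, a secreted inhibitor of lipoprotein lipase, rose in both genotypes (1.13 and 1.44).

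ERR and PGC-1 target genes of the citric acid cycle and respiratory chain fell without exception, 25 of 25 in both genotypes (24.1% and 27.7% of all genes), with medians of -2.55 and -2.29. Mfn2, which fuses mitochondria, fell by 2.45 and 1.63 on the log2 scale. Idh3g and Dlst, subunits of citric acid cycle enzymes, fell by 2.43 and 1.86 and by 1.91 and 1.62. The median of the cardiomyocyte markers was -3.10 in control and -2.24 in LysMCre mice.

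Of 16 PPARγ target genes of fat cells 11 passed the filter on low counts, with 6 lower and 1 higher (Cfd) in control and 7 lower and 0 higher in LysMCre mice. The share called in either direction is not far from that of all genes (50.4% and 57.6%). The share that fell lies above that of all genes (24.1% and 27.7%), and the list was not tested as a set. Those with the smallest p do not belong to fat cells alone. Pnpla2, the triglyceride lipase, fell by 2.11 and 1.69 on the log2 scale, Plin4, a lipid droplet coat, by 2.31 and 1.81, and Agpat2, of lipid synthesis, by 1.09 and 1.46. Dgat2, Cidea and Fabp4, named after their values were seen, fell by 3.05, 2.55 and 2.07 in control mice. A list of 18 genes for the transcription and copying of mitochondrial DNA, beside Tfam, also held genes without a direct part in either. These were Gabpa, Gabpb1, Gabpb2, Lonp1, Tk2 and Dguok. Of the 18, 10 fell and 2 rose in control and 13 fell and 2 rose in LysMCre mice. Over all genes, 24.1% and 27.7% fell. Their changes were smaller, with medians of -0.75 and -0.77. Twnk, the mitochondrial helicase, fell by 1.34 and 0.99, Mgme1, a mitochondrial nuclease, by 1.34 and 1.03, and Ssbp1, which coats single strands, by 1.02 and 1.39. In none of these lists was a gene called between genotypes or for a different response to MI by edgeR.

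**Figure D5:**
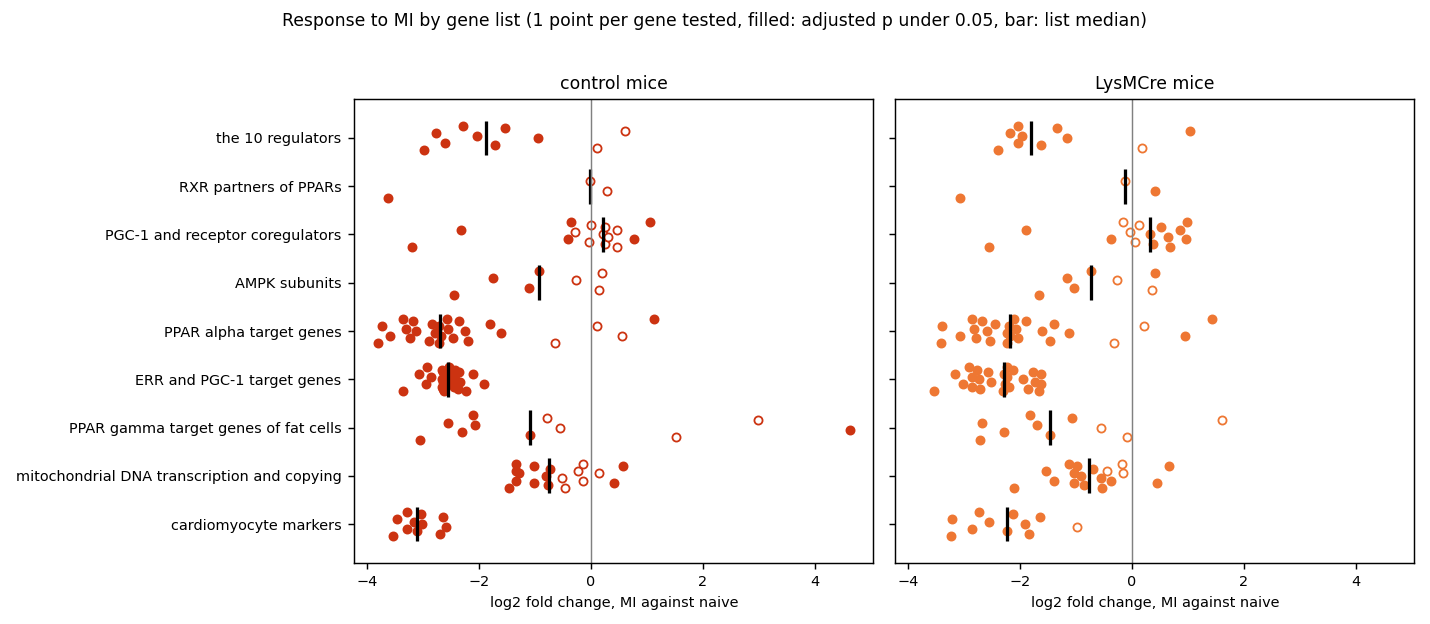
Log2 fold change of MI against naive for each gene tested, by list, in control mice (left) and LysMCre mice (right), with filled points at an adjusted p under 0.05 and a bar at the list median. All 25 ERR and PGC-1 target genes lie below 0 in both panels, and Cidec, at 0 counts in the naive LysMCre libraries, is left out of the right panel.

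Genes whose levels followed the regulators most closely were found by Pearson's r of log2 CPM over the 11 libraries, a description in which all points share the split between naive and MI. Ppargc1a went with Popdc2, Hspb6 and Pkp2 (r = 0.997 for each), genes of the cardiomyocyte membrane, stress response and desmosome. Ppara went with Klhl41 (r = 0.986), the heart transcription factor gene Tbx5 (0.985) and Gbe1, of glycogen synthesis (0.984). Esrra went with Agpat2 (0.995), Atg4d (0.994) and Endog (0.994). Pparg had lower coefficients, with Dhdh (0.965), the kinase gene Chek2 (0.964) and the kinase gene Sgk1 (0.958). Among the 10 genes, Ppargc1a and Esrrg had the highest r (0.982), and Nrf1 and Pparg had the one nearest to 0 (-0.368).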

How the data were processed

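RNA of the left ventricle was made into stranded mRNA libraries and sequenced on an Illumina HiSeq instrument, 1 library per mouse. The deposited values are read counts per Ensembl gene, which the authors left without normalization. The submitters' processing notes name cutadapt 1.13, STAR, HTSeq 0.6.1p1, DESeq2 1.14.1 and build mm10, with the strand setting and annotation not given in the sources used here. Groups were taken from the titles. Depth was 10824989 to 26782728 counts per library. Of 25006 genes, 24991 were found in GENCODE M21 and 14779 passed filterByExpr. Counts were fitted in 1 model of 4 groups over all 11 libraries with edgeR 4.0.16 (TMM, glmQLFit, glmQLFTest, R 4.3.3), with Benjamini-Hochberg adjustment over all genes tested and calls at an adjusted p under 0.05. Every adjusted p comes from this test unless DESeq2 is named. CPM use the TMM-scaled library size and log2 CPM a prior count of 2. RPKM divide by merged exon length. The steps were tested on simulated counts with known responses to MI. In control mice 26 of 100 genes changed 2-fold and 78 of 100 changed 4-fold were recovered, with 4 false calls. In LysMCre mice 41 and 80 of 100 were recovered, with 7 false calls. No difference between genotypes was simulated, so the recovery of such a difference was not tested. Alternatives were DESeq2 1.42.0, its size factors in edgeR, library size alone, no filter on low counts, fits of the compared groups only, and fits with each library removed in turn. The 10 genes and the lists were chosen with earlier results of these data known. Named genes are the 10, the 3 of each list with the smallest p in control mice and any list gene called between genotypes, and the 3 nearest genes of Ppargc1a, Ppara, Pparg and Esrra. Some genes of these lists are not reported here by name. Nothing states that mice of a group came from separate litters or batches, so p-values measure the spread between these mice.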

Additional observations from a re-analysis of the deposited data

Results flagged for a closer look

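Of the regulators and the lists around them, 2 coregulators had all libraries of one comparison moving one way and all of the other moving the opposite way. Of all 14779 genes tested, 0.690% had this pattern in the responses to MI and 2.82% in the comparisons of genotypes. Ncoa1 had it in both pairs of comparisons and Ncor1 in the comparisons of genotypes only. With all genes of these lists searched, the 2 are not read as an excess over those shares. Ncor1, the nuclear receptor corepressor, was higher in LysMCre than in control hearts after MI (log2 difference 0.40, standard error 0.12, adjusted p = 0.584) and lower in naive hearts (-0.15, standard error 0.13, adjusted p = 1). Its levels after MI were 89.0, 104 and 83.9 CPM in LysMCre M35, M900 and M913 and 74.7, 62.0 and 72.6 CPM in controls M006, M38 and M40. The DESeq2 Wald test called this MI difference (0.40, adjusted p = 0.0462), and it called no other gene of these lists between genotypes.

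Ncoa1, a steroid receptor coactivator, had a log2 fold change after MI of -0.29 in control mice (standard error 0.13, adjusted p = 0.0857) and of 0.32 in LysMCre mice (standard error 0.12, adjusted p = 0.0351). Between genotypes it was at 0.37 after MI (standard error 0.11, adjusted p = 0.584) and at -0.24 in naive hearts (standard error 0.13, adjusted p = 1). The difference in response was tested for both genes by edgeR's interaction term and not called, at 0.55 (standard error 0.18, adjusted p = 0.543) for Ncor1 and 0.61 (standard error 0.17, adjusted p = 0.534) for Ncoa1. Groups of 2 or 3 mice were too small for a test of single outlying libraries.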

How the results depend on the processing

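No paired analysis was possible because the groups share no mouse numbers. The number of the 10 regulators called was 7 to 9 in control and 7 to 9 in LysMCre mice with each library left out, 10 and 7 with library size alone, 8 and 8 with the compared groups alone, and 8 and 9 under the other alternatives. Over all genes, library size alone called 9009 in control and 9880 in LysMCre mice, against 7450 and 8520 in the main fit. The number of the 10 called was 0 under every alternative run in both comparisons of genotypes. It was also 0 in the difference of responses, which has no fit of compared groups alone. Of 790 member values under alternatives, 748 kept direction and side of the threshold, 16 lost a call, 4 gained one and 22 changed sign. All 22 came from leaving out 1 library in a comparison that was never called, and the cause was not tested. Between genotypes after MI the values ran from -0.070 to 1.24 for Ppargc1a, -0.33 to 0.0033 for Ppargc1b, -0.42 to 1.36 for Ppara, -0.098 to 0.13 for Pparg, -0.35 to 0.23 for Esrra, -0.29 to 1.19 for Esrrg and -0.18 to 0.012 for Nrf1. In naive hearts they ran from -0.43 to 0.099 for Ppargc1b and -0.21 to 0.47 for Ppara. The difference of responses ran from -0.28 to 1.03 for Ppargc1a, -0.24 to 0.29 for Ppargc1b, -0.51 to 1.27 for Ppara, -0.49 to 0.99 for Esrrg and -0.011 to 0.18 for Nrf1. Over all genes, edgeR called 0 between genotypes after MI, 0 in naive hearts and 0 for the difference of responses, DESeq2 called 61, 14 and 54, and the compared groups alone called 2 in naive hearts. Without M149 edgeR called 17 genes between genotypes in naive hearts. In control mice the response to MI fell from 7450 to 4880 genes without M44 and 4574 without M45. Depth limits Ppara and Ppargc1b after MI, which were at 0.367 to 2.47 and 0.484 to 0.844 CPM against a floor of 0.101 to 0.363 CPM.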
